A study of Mus musculus with 2 samples.

Results

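BAFF, APRIL and their receptors are encoded by 5 genes that were taken by symbol from the gene list of the single-cell series, which holds 19960 genes. The ligands are *Tnfsf13b* (BAFF) and *Tnfsf13* (APRIL), and the receptors are *Tnfrsf13b* (TACI), *Tnfrsf13c* (BAFF-R) and *Tnfrsf17* (BCMA). The deposited list names 4 of them by symbol. *Tnfrsf13c* has no symbol there and was found by its identifier, ENSMUSG00000068105. The ligands were examined mainly in myeloid and stromal cells, and the receptors in B2 cells, B1 cells and plasma cells.

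BAFF and APRIL are TNF-family cytokines that keep B-lineage cells alive, and both are cut from their precursor forms by furin-type proteases. BAFF-R binds BAFF alone and is the main survival receptor of mature B cells, where it acts through TRAF3 and the NF-kB2 pathway. TACI and BCMA bind both ligands. TACI takes part in responses to polysaccharide antigens and in class switching, and BCMA sustains long-lived plasma cells, in which it supports expression of the anti-apoptotic protein MCL1. The omentum carries milky spots, lymphoid clusters in which B1 cells, B2 cells and plasma cells lie beside macrophages and stromal cells.

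The series holds 2 libraries of omental cells, one from WT mice and one from *Postn*-DTR mice, both taken 5 days after diphtheria toxin (DT). *Postn*-DTR mice are heterozygotes with the DT receptor inserted into *Postn*, which encodes periostin and is active in a subset of fibroblastic reticular cells, and WT mice were given DT as well. Each library pools 3 mice. With 1 library per group no replicate error exists, so the values below compare these libraries and not the genotypes, and intervals (95%, exact Poisson, binomial or conditional binomial) cover counting error only. The upper limit given where no cell had a UMI is 3 cells of the total.

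After filtering there were 8654 WT and 5727 *Postn*-DTR cells with medians of 5635 and 8472 transcript molecules (UMIs, unique molecular identifiers). Clusters were named "X-like" from marker genes, and neither the 5 genes nor the related pathway genes were used to build the clusters. Plasma-like cells numbered 621 in WT and 2229 in *Postn*-DTR, B2-like cells 1523 and 448, B1-like cells 1062 and 476, neutrophil-like cells 418 and 1027, and macrophage-like cells 121 and 329. The stromal-like class held only 42 and 20 cells, and *Postn* itself, the targeted gene, gave 50 UMIs in 9 of the WT stromal-like cells and 9 UMIs in 4 of the *Postn*-DTR ones. RNA of other cells was present in the *Postn*-DTR stromal-like cells, where all 8 plasma cell markers were detected with a summed level of 153 UMIs per 10000, against 16.5 in WT. In all, 65 barcodes occurred in both libraries.

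In the GRCm38 assembly *Tnfsf13b* (ENSMUSG00000031497) lies on chromosome 8 (10006467 to 10039072, plus strand) and *Tnfrsf17* (ENSMUSG00000022496) on chromosome 16 (11313812 to 11320074, plus strand). *Tnfrsf13c* lies on chromosome 15 (82221743 to 82224369, minus strand). *Tnfsf13* (ENSMUSG00000089669, 69682846 to 69685784, minus strand) and *Tnfrsf13b* (ENSMUSG00000010142, 61126755 to 61149372, plus strand) are both on chromosome 11. *Tnfsf13* lies next to *Tnfsf12*, and the annotation holds a read-through transcript of both genes. That transcript was not analysed here, and how reads shared with it were counted is not given in the sources used here, so part of the *Tnfsf13* signal is uncertain.

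The 250 bases before the RefSeq transcription start are shown for APRIL and for BAFF-R and BCMA, the receptors that differed in opposite directions between the libraries in plasma-like cells (RefSeq, GRCm38.p6). Capitals mark TGANTCA (the AP-1 motif) in *Tnfsf13*, CAGGTG (an E-box) in *Tnfrsf13c* and GAGGAA (the ETS core of PU.1 and Spi-B, here as its reverse complement) in *Tnfrsf17*. The gene bounds above are those of GENCODE, and most of the *Tnfsf13* window, its AP-1 match included, lies inside the longer gene model given there.
*Tnfsf13*, chr11:69685555-69685804, minus strand: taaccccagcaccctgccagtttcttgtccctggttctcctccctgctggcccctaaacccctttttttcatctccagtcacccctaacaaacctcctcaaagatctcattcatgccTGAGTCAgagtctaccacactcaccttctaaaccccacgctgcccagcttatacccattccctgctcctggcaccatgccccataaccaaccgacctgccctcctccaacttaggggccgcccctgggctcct
*Tnfrsf13c*, chr15:82224381-82224630, minus strand: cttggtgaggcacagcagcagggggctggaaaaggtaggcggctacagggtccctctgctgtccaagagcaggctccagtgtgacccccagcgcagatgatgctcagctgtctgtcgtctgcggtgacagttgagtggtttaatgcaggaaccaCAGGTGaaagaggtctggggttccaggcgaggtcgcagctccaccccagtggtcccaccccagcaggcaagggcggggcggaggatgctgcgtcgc
*Tnfrsf17*, chr16:11313559-11313808, plus strand: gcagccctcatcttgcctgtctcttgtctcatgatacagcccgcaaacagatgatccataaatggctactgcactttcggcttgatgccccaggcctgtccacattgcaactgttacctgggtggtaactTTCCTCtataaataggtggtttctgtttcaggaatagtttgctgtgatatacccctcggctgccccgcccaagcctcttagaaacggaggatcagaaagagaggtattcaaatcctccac

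In windows of the same length before 32851 annotated starts, TGANTCA was found on either strand in 6.75%, CAGGTG in 17.2% and GAGGAA in 23.3%, and each of these was found in 1 of the 5 member windows. GGGNNNNNCC (NF-kB) was found in 3 member windows, those of *Tnfsf13*, *Tnfrsf13b* and *Tnfrsf13c*, against 45.8% of all windows. GAAANNGAAA (IRF) was found in that of *Tnfrsf17*, against 2.98%. TTGCNNAA (C/EBP), ATGCAAAT (octamer), GCNTGAC (PAX5), ACGTGT (XBP1), CACGTG (USF) and TCCCNNGGGA (EBF) were searched on both strands and matched no member window. Matches of different motifs did not overlap in these windows, although CACGTG and ACGTGT share letters. A match is a description of the letters and does not show that a factor binds.

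Transcripts of each member sat in a different set of cells. Among classes with at least 30 cells in the library, BAFF was highest in neutrophil-like cells, APRIL in macrophage-like and monocyte-like cells, BAFF-R in B2-like cells and BCMA in plasma-like cells, and TACI was shared by all B-lineage classes and by pDC-like cells.

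**Figure D1:**
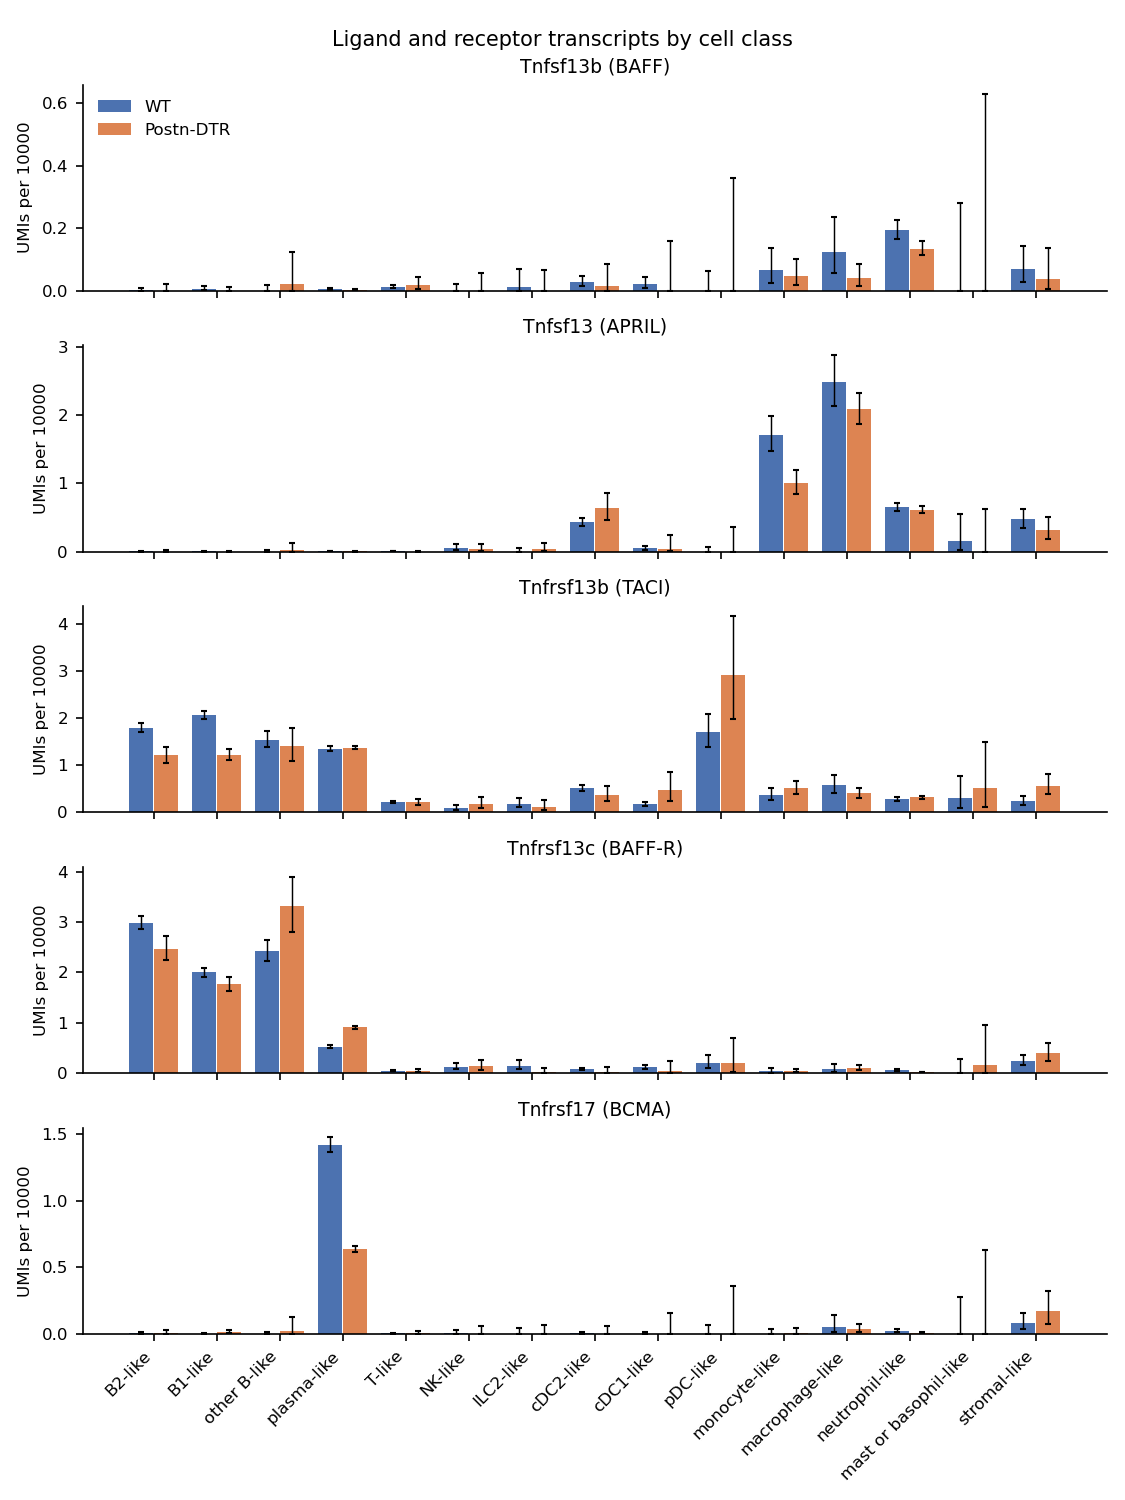
Transcript level of each gene (summed UMIs per 10000 UMIs of the class, linear axes starting at 0) in 15 cell classes, with WT in blue and Postn-DTR in orange. Error bars are 95% Poisson counting intervals. BCMA is seen in plasma-like cells, at 1.42 in WT and 0.637 in Postn-DTR, and APRIL is highest in macrophage-like cells.

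BAFF was sparse, with 250 UMIs in 183 WT cells and 182 UMIs in 158 *Postn*-DTR cells. Neutrophil-like cells had a mean level (mean over cells of UMIs per 10000) of 0.209 in WT and 0.208 in *Postn*-DTR. Macrophage-like cells followed in WT at 0.148, from only 9 UMIs, and stood at 0.0333 in *Postn*-DTR, from 7 UMIs. In WT the counting intervals of neighbouring classes in this order overlapped throughout. In *Postn*-DTR the interval of neutrophil-like cells (0.114 to 0.159 from summed UMIs) lay above that of every other class with at least 30 cells. Monocyte-like cells had 0.0568 and 0.0396, and stromal-like cells 0.101 and 0.0321 from 7 and 2 UMIs. B2-like cells, which served as a background class, had 0.00280 in WT and no BAFF UMI in 448 *Postn*-DTR cells, which allows a share of up to 0.670% of cells with a UMI.

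Neutrophil-like cells formed 3 clusters, and BAFF and APRIL differed between them. Cluster 11 was led by *Elane* and *Mpo*, which encode primary granule proteins made early in granulocyte development. Cluster 12 was led by genes such as *Ltf* and *Camp*, whose products fill the secondary granules, and cluster 7 by *Cxcr2* and *Csf3r*, receptors of circulating neutrophils. BAFF levels from summed UMIs in cluster 11 were 0.119 in WT and 0.0864 in *Postn*-DTR. In cluster 12 they were 0.40 (0.320 to 0.494) in WT against 0.258 (0.186 to 0.349) in *Postn*-DTR, above the intervals of cluster 11 in both libraries. Cluster 7 had 0.195 (0.0633 to 0.455) from 5 WT UMIs and 0.242 (0.169 to 0.337) from 35 *Postn*-DTR UMIs, so that its *Postn*-DTR interval also lay above that of cluster 11.

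APRIL showed the opposite pattern among the same cells. Its level in cluster 11 was 0.890 (0.815 to 0.969) in WT against 0.857 (0.791 to 0.927) in *Postn*-DTR. In cluster 12 it was 0.0790 and 0.0554. Cluster 7 held no APRIL UMI in 56 WT cells, which allows a share of up to 5.36% of cells with a UMI, and 1 UMI in 474 *Postn*-DTR cells. Cluster 11 thus carried 525 of the 542 APRIL UMIs of WT neutrophil-like cells and 625 of the 635 in *Postn*-DTR. The marker scores of cluster 11 were close for neutrophils (0.636) and monocytes (0.714), and it was placed with neutrophils because neutrophil markers were more frequent among its 10 leading genes.

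**Figure D2:**
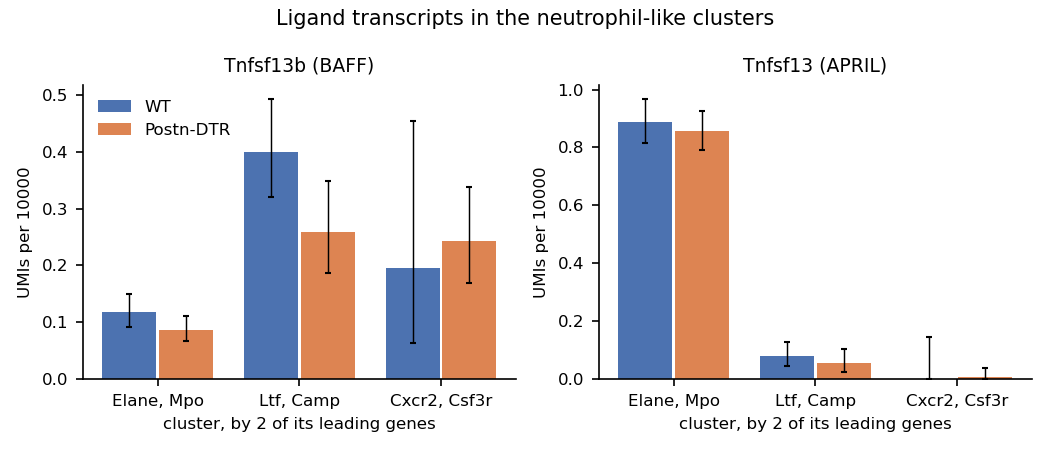
BAFF (left) and APRIL (right) levels (summed UMIs per 10000, linear axes from 0) in the 3 neutrophil-like clusters, each given by 2 of its leading genes, with WT in blue and Postn-DTR in orange. Error bars are 95% Poisson counting intervals. APRIL is near 0.9 in the Elane and Mpo cluster and under 0.1 in the others, whereas BAFF is highest in the Ltf and Camp cluster in WT.

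The 3 clusters made up different parts of the class in the libraries. Cluster 11 held 42.3% of the WT and 27.7% of the *Postn*-DTR neutrophil-like cells, cluster 12 held 44.3% and 26.2%, and cluster 7 held 13.4% and 46.2%. Cluster 7 was also shallow, with medians of 3213.5 and 2822.5 UMIs against 32606 and 23878.5 in cluster 11. For the class as a whole, the APRIL mean of 0.378 in WT and 0.227 in *Postn*-DTR gave a log2 ratio of -0.74, while within cluster 11 the log2 ratio was -0.10. The BAFF log2 ratio of the class was -0.00 from the means over cells and -0.52 (-0.86 to -0.18) from summed UMIs, in which deep cells count for more. Within clusters 11 and 12 it was -0.20 and -0.34, and in cluster 7 it was 1.07 from the few UMIs given above. Over all genes in the class with at least 30 UMIs the median log2 ratio was -0.22, and 15.6% of these genes were 2-fold or more apart. Neither ligand was among them.

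The share of neutrophil-like cells with a BAFF UMI was 24.2% in WT and 11.4% in *Postn*-DTR. The median cell held 13743.5 UMIs in WT and 4504 in *Postn*-DTR. When each cell was thinned to 2000 UMIs the shares were 3.45% (1.90 to 5.72) and 4.0% (2.80 to 5.52), with 12 and 152 shallower cells left out. The order of the libraries therefore turned with depth and was not read as a difference. In T-like cells the thinned shares were 0.231% and 0.435%.

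APRIL was the more abundant ligand, with 1227 UMIs in WT and 1189 in *Postn*-DTR. Macrophage-like cells had the highest mean level, 2.27 UMIs per 10000 in the WT library and 1.83 in *Postn*-DTR. Monocyte-like cells came next with 1.74 and 1.18, and the intervals of these classes did not overlap in either library. cDC2-like cells had 0.407 and 0.747, and stromal-like cells 0.480 and 0.362. B2-like cells held 2 APRIL UMIs in 1523 WT cells and none in 448 *Postn*-DTR cells (up to 0.670% of cells).

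Between the libraries, APRIL in monocyte-like cells differed by a log2 ratio of -0.56, with -0.76 (-1.10 to -0.43) from summed UMIs. All genes tested in that class had a median of -0.10, and 12.1% of them were 2-fold or more apart. Neutrophil markers differed in the opposite direction, with summed levels of 1.36 in WT and 53.3 in *Postn*-DTR monocyte-like cells. Of these markers 6 of 11 were detected in WT (*Cxcr2*, *Retnlg*, *Mmp9*, *Ly6g* and *Mpo* were at 0) and 11 of 11 in *Postn*-DTR. Of the macrophage markers 6 of 10 were detected in WT and 9 of 10 in *Postn*-DTR, with summed levels of 10.7 and 4.33. The monocyte markers themselves summed to 76.0 and 118. The part of these markers in the APRIL value was not tested. In macrophage-like cells the log2 ratio was -0.31, the interval of the summed value (-0.52 to 0.01) held 0, neutrophil markers summed to 1.68 and 13.8, and when macrophages were gated by UMIs of marker genes in place of clusters the ratio was 0.07. In the macrophage-like class 15.9% of genes were 2-fold or more apart and the median was -0.15. APRIL in cDC2-like cells was higher in *Postn*-DTR, with a log2 ratio of 0.87 and a summed value of 0.58 (0.06 to 1.06) from 222 and 41 UMIs, and it was 0.34 under the gates. Macrophage markers moved with it: 10 of 10 were detected in WT and 8 of 10 in *Postn*-DTR cDC2-like cells, where *Gata6* and *Prg4* were at 0, and their summed level was 21.4 in WT and 46.2 in *Postn*-DTR. The cDC2 markers themselves summed to 13.6 and 9.28, and the marker score of this cluster was 0.714 for cDC2 and 0.6 for macrophages. The part of the macrophage markers in the APRIL value was not tested. Of all genes in cDC2-like cells 19.0% were 2-fold or more apart. In stromal-like cells APRIL gave 47 and 17 UMIs and a log2 ratio of -0.41, with an interval of -1.45 to 0.27, in a class where 30.8% of genes passed 2-fold and the median was -0.46. Without the cell with the most APRIL UMIs in each library the stromal ratio was -1.10, and under the gates it was 0.45.

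Most ligand transcripts came from myeloid cells in both libraries. Neutrophil-like cells held 64.4% (58.1 to 70.3) of the BAFF UMIs in WT and 76.9% (70.1 to 82.8) in *Postn*-DTR. For APRIL they held 44.2% (41.4 to 47.0) and 53.4% (50.5 to 56.3). Macrophage-like cells held 14.8% (12.8 to 16.9) of the APRIL UMIs in WT and 29.4% (26.9 to 32.1) in *Postn*-DTR, while their share of all cells was 1.40% and 5.74%. cDC2-like cells went the other way, from 18.1% to 3.45% of the APRIL UMIs, with 5.00% and 1.29% of all cells. Monocyte-like cells held 14.9% and 10.9%. Of the BAFF UMIs T-like cells held 8.8% in WT and 2.75% in *Postn*-DTR, and cDC2-like cells 6.0% and 0.549%. Plasma-like cells held 4.40% and 10.99% of the BAFF UMIs, at mean levels of only 0.00577 and 0.00353. Stromal-like cells held 3.83% and 1.43% of APRIL and 2.80% and 1.10% of BAFF. Per 1000 cells of the library there were 142 APRIL UMIs in WT and 208 in *Postn*-DTR, and 28.9 and 31.8 BAFF UMIs. The libraries differed in depth, with medians of 5635 and 8472 UMIs per cell. APRIL gave 1227 of 80152242 UMIs in WT and 1189 of 81011111 in *Postn*-DTR, and BAFF gave 250 and 182. Relative to all UMIs both ligands were therefore lower in *Postn*-DTR, so the order of the libraries turned. The class shares depend on the clustering. At resolution 1.6 cluster 11 was counted with monocytes. Neutrophil-like cells then held 1.06% and 0.757% of APRIL and 34.0% and 40.1% of BAFF. With gates they held 13.1% and 22.9% of APRIL. They also depend on depth: as mean level times number of cells, neutrophil-like cells held 17.8% and 21.5% of APRIL, below macrophage-like cells with 30.9% and 55.3%.

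**Figure D3:**
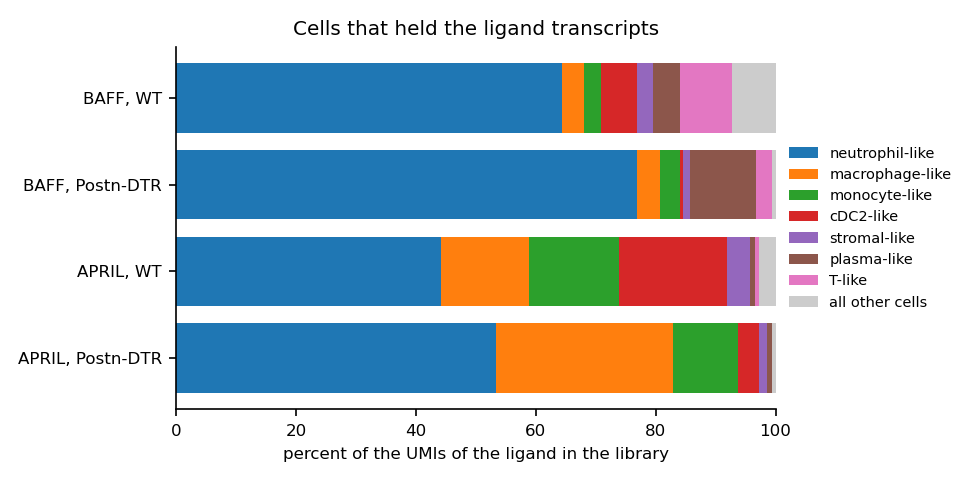
Share of all BAFF and APRIL UMIs of each library (percent, horizontal stacked bars) that came from each cell class, with grey for the remaining cells. By summed UMIs in these clusters neutrophil-like cells hold the largest share in all 4 bars, and the macrophage-like share of APRIL is 14.8% in WT and 29.4% in Postn-DTR.

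Among the receptors, BAFF-R had the clearest order across B-lineage cells. Its mean level was 2.99 UMIs per 10000 in WT B2-like cells, 2.06 in B1-like cells and 0.517 in plasma-like cells. In *Postn*-DTR the same order held at 2.54, 1.73 and 0.907, and in both libraries the counting intervals of these 3 classes did not overlap. The levels are relative to all UMIs of a cell, and when immunoglobulin, antigen receptor, mitochondrial and ribosomal protein genes were left out of the totals they were 4.44, 3.25 and 1.62 in WT against 3.90, 2.70 and 2.67, so that B1-like and plasma-like cells were then about level in *Postn*-DTR. T-like cells, the background class, had 0.0311 and 0.0251. After thinning to 2000 UMIs, 42.6% of WT and 37.8% of *Postn*-DTR B2-like cells had a BAFF-R UMI, against 0.660% and 0.435% of T-like cells, whose median depths (4654 and 4296.5 UMIs) were close to those of B2-like cells (4403 and 3251).

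BAFF-R was somewhat lower in the B2-like and B1-like cells of the *Postn*-DTR library. The log2 ratio was -0.24 in B2-like cells, with a summed interval of -0.43 to -0.12, and -0.25 in B1-like cells, with -0.32 to -0.05. In these classes 6.55% and 6.09% of all genes were 2-fold or more apart, and BAFF-R was not among them. A small class of other B-like cells, which held 94 cells from the WT library and 17 from that of *Postn*-DTR, went the other way, with summed levels of 2.43 (2.22 to 2.65) and 3.32 (2.81 to 3.90).

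TACI was broader. In WT its mean level was 2.12 in B1-like cells, 1.79 in B2-like cells and 1.36 in plasma-like cells, and pDC-like cells stood among them at 1.77 from 98 UMIs in 61 cells. In *Postn*-DTR plasma-like cells came first with 1.39, followed by B1-like cells with 1.22 and B2-like cells with 1.18. The B1 and B2 intervals overlapped, and that of B2-like cells (1.06 to 1.40 from summed UMIs) also overlapped that of plasma-like cells (1.34 to 1.40). With the reduced totals plasma-like cells came first in both libraries, at 4.37 in WT and 4.15 in *Postn*-DTR, against 3.38 and 1.93 in B1-like cells and 2.67 and 1.81 in B2-like cells. The 13 *Postn*-DTR pDC-like cells had 3.08. TACI was also seen at low levels outside these classes, with 0.530 and 0.397 in macrophage-like cells, 0.481 and 0.345 in cDC2-like cells, 0.206 and 0.241 in T-like cells and 0.0628 and 0.120 in NK-like cells. The ratio of TACI to BAFF-R UMIs was not the same in these classes: WT macrophage-like cells held 42 and 6, T-like cells 380 and 88, and NK-like cells 17 and 22.

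TACI was lower in the B1-like and B2-like cells of the *Postn*-DTR library. The level in B1-like cells was 2.12 in WT and 1.22 in *Postn*-DTR, which is a log2 ratio of -0.79 with a summed interval of -0.92 to -0.61. In B2-like cells it was 1.79 and 1.18, a log2 ratio of -0.61 with an interval of -0.78 to -0.34. After thinning to 2000 UMIs a TACI UMI was found in 34.8% (31.9 to 37.7) of WT and 19.8% (16.3 to 23.7) of *Postn*-DTR B1-like cells, and in 29.98% (27.6 to 32.4) and 18.8% (15.2 to 22.9) of B2-like cells. The T-like shares were 4.06% and 4.57%. Over all genes tested the median log2 ratio was 0.01 in both B cell classes, and TACI did not reach 2-fold in either. In plasma-like cells the TACI ratio was 0.04, with an interval of -0.04 to 0.08, and its sign changed to -0.08 when immunoglobulin, mitochondrial and ribosomal protein genes were left out of the totals.

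BCMA was close to a plasma cell transcript in these libraries. Plasma-like cells had a mean level of 1.42 in WT and 0.628 in *Postn*-DTR and held 2786 of 2835 and 3581 of 3613 BCMA UMIs. WT B2-like cells gave 3 UMIs and those of *Postn*-DTR 1, B1-like cells 3 and 4, and T-like cells 8 and 1. Stromal-like cells had 8 and 9 UMIs, beside the plasma cell markers given above.

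Within plasma-like cells the receptors did not differ between the libraries in the same way. BCMA was lower in *Postn*-DTR by a log2 ratio of -1.18, with a summed interval of -1.23 to -1.08, or 0.442 times the WT level. BAFF-R was higher, 0.517 in WT against 0.907 in *Postn*-DTR, which is a log2 ratio of 0.81 with an interval of 0.69 to 0.88. TACI was nearly level. The thinned share of cells with a BCMA UMI was 25.7% (22.2 to 29.3) in WT against 8.84% (7.68 to 10.1) in *Postn*-DTR, and that with a BAFF-R UMI 10.5% (8.15 to 13.2) and 15.7% (14.2 to 17.3). Of the 13 pairs of a gene and a class with enough UMIs for a ratio, BCMA in plasma-like cells was the only one past 2-fold, in a class where 14.1% of all genes were. Plasma cell markers moved with BCMA: 8 of 8 were detected in the plasma-like cells of both libraries, and their summed level was 507 in WT and 363 in *Postn*-DTR. Their part in the BCMA value was not tested. In the alternatives the BCMA ratio lay between -1.61 and -1.02 and that of BAFF-R between 0.65 and 1.04.

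**Figure D4:**
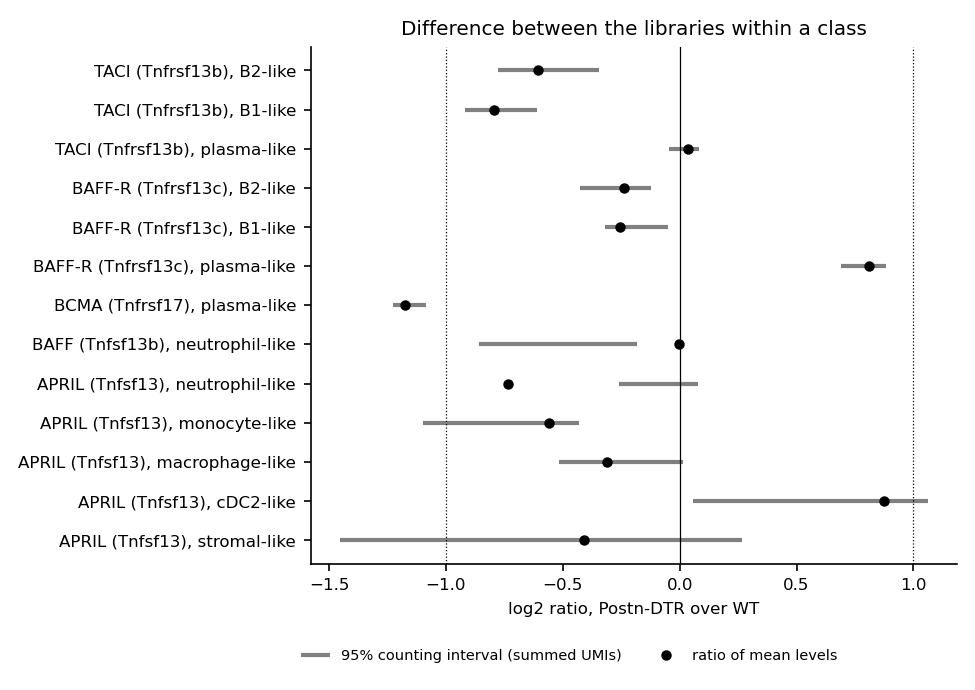
Log2 ratio of Postn-DTR to WT for the 13 pairs of gene and class with at least 30 UMIs. Points are ratios of mean levels over cells, grey lines are 95% counting intervals of the ratio of summed UMIs, and dotted lines mark 2-fold. BCMA in plasma-like cells is past the lower line at -1.18, and BAFF-R in the same cells lies at 0.81.

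Plasma-like cells fell into 5 clusters, and the direction was shared by all 5 for BCMA and BAFF-R. In cluster 3, the main one in WT (62.5% of WT and 41.9% of *Postn*-DTR plasma-like cells), BCMA was 1.67 in WT and 0.695 in *Postn*-DTR. Cluster 4, led by endoplasmic reticulum genes such as *Derl3* and *Creld2* (11.1% and 29.9%), had 1.71 and 0.783. Cluster 14, led by the IgG genes *Ighg1*, *Ighg2b* and *Ighg3*, had the lowest values, 0.530 and 0.151, a log2 ratio of -1.82. The cycling cluster 18 had 0.864 and 0.508. Cluster 19, in which 13.7% of cells were called doublets, had 0.804 and 0.615, a log2 ratio of -0.39 from the means and -0.89 from summed UMIs.

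BAFF-R was higher in *Postn*-DTR by 0.59 to 1.03 on the log2 scale across the 5 clusters. Relative to all UMIs its highest level was in cycling cluster 18, at 0.812 in WT and 1.22 in *Postn*-DTR. TACI ratios in clusters 3, 4 and 18 were between -0.09 and -0.02, whereas cluster 14 had -0.32 and cluster 19 had 0.92.

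**Figure D5:**
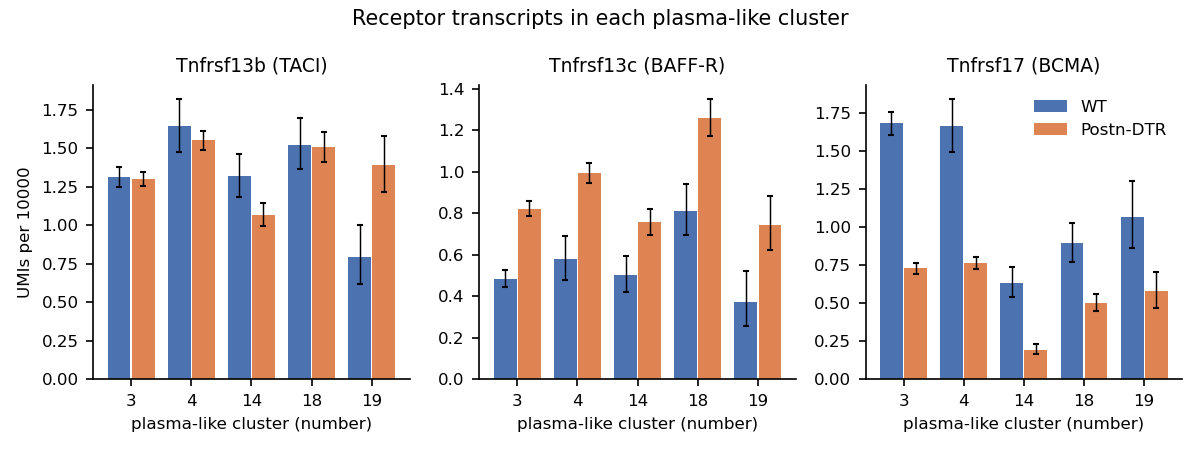
TACI, BAFF-R and BCMA levels (summed UMIs per 10000, linear axes from 0) in the 5 plasma-like clusters, with WT in blue and Postn-DTR in orange and 95% Poisson counting intervals as error bars. BAFF-R is higher and BCMA lower in Postn-DTR in each cluster, and BCMA is lowest in cluster 14, which is led by IgG genes.

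B2 cell markers as a list were at nearly the same level in the plasma-like cells of both libraries. All 9 B2 markers were detected in both libraries, and their summed level was 11.2 in WT (8.0 to 13.5 over clusters) and 11.02 in *Postn*-DTR (7.41 to 13.7). Of these, *Ms4a1* (CD20) was 0.851 and 0.399 and *Fcer2a* (CD23) 0.0439 and 0.00237, both lower in *Postn*-DTR, while *Cd79a*, which plasma cells also express, was 6.48 and 7.87. The 8 T cell markers were all detected too, and their summed level was 0.826 in WT and 0.207 in *Postn*-DTR. The 11 neutrophil markers summed to 1.11 and 4.19, with up to 51.2 in 1 *Postn*-DTR cluster. Leaving out cluster 19 gave log2 ratios of -1.22 for BCMA and 0.80 for BAFF-R. The median share of immunoglobulin UMIs in a plasma-like cell was 61.2% in WT and 55.6% in *Postn*-DTR, and the median depth 29698 and 23844 UMIs.

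The receptors were also compared by isotype, taken as the class with at least 70% of the heavy chain constant region UMIs of a cell. IgM cells made up 82.8% of WT and 84.4% of *Postn*-DTR plasma-like cells, and IgG cells 11.3% and 12.9%. There were 18 IgA cells in WT and 9 in *Postn*-DTR. BCMA in IgM cells was 1.58 in WT and 0.704 in *Postn*-DTR, which is a log2 ratio of -1.16. In IgG cells it was 0.307 and 0.0981, a log2 ratio of -1.65 from 77 and 78 UMIs. IgG cells therefore had less BCMA than IgM cells in both libraries, with summed values of 0.350 (0.276 to 0.437) against 1.58 (1.52 to 1.65) in WT, and 0.114 (0.0899 to 0.142) against 0.710 (0.686 to 0.734) in *Postn*-DTR. The 18 IgA cells of WT had 1.71. BAFF-R in IgG cells was 0.482 and 0.766 (0.529 and 0.922 in IgM cells), and TACI was 1.32 and 1.08 (1.37 and 1.44 in IgM cells). The summed intervals of IgG and IgM cells overlapped in WT for both genes. In *Postn*-DTR those of IgG cells lay lower, at 0.714 to 0.847 against 0.901 to 0.957 for BAFF-R and 1.04 to 1.20 against 1.38 to 1.45 for TACI.

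Cycling cells, with UMIs of at least 3 of 10 proliferation genes, made up 12.1% of WT and 14.0% of *Postn*-DTR plasma-like cells. Relative to all UMIs their BAFF-R level was 0.760 against 0.483 in the other plasma-like cells of WT and 1.10 against 0.876 in *Postn*-DTR. Immunoglobulin UMIs were fewer in cycling cells, with median shares of 32.6% against 62.5% in WT and 34.9% against 57.5% in *Postn*-DTR. With the reduced totals BAFF-R was 1.56 in cycling and 1.63 in other cells of WT, and 2.29 and 2.73 in *Postn*-DTR, so its order turned in both libraries. BCMA was lower in cycling cells, 0.973 against 1.48 in WT and 0.559 against 0.640 in *Postn*-DTR, and this order held with the reduced totals. From summed UMIs its intervals were apart in WT (0.928 to 1.16 against 1.44 to 1.55) but overlapped in *Postn*-DTR (0.551 to 0.646 against 0.623 to 0.670). The log2 ratio of BCMA between the libraries was -0.80 in cycling cells (-0.99 to -0.60 from summed UMIs) and -1.21 in the others (-1.29 to -1.13). For BAFF-R it was 0.53 and 0.86.

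Joint detection was examined in plasma-like cells thinned to 10000 UMIs, which left 596 WT and 2086 *Postn*-DTR cells. A BCMA UMI was found in 64.8% (60.8 to 68.6) of WT and 37.5% (35.4 to 39.6) of *Postn*-DTR cells, and a BAFF-R UMI in 34.7% (30.9 to 38.7) and 55.0% (52.9 to 57.2). TACI was found in 70.8% and 69.7%. Cells with BCMA but no BAFF-R UMI made up 43.3% in WT and 16.4% in *Postn*-DTR, and cells with BAFF-R but no BCMA UMI 13.3% and 33.9%. All 3 receptors were seen together in 14.8% and 15.5%. Within a library BCMA was about as frequent in cells with a BAFF-R UMI as in those without one, 61.8% (54.8 to 68.5) against 66.3% (61.4 to 71.0) in WT and 38.3% (35.5 to 41.2) against 36.5% (33.4 to 39.6) in *Postn*-DTR.

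Other genes of the pathway were taken from a list of 46 (ligand processing, receptor shedding, adaptors and NF-kB, survival, and related receptors). In B2-like cells 39 had at least 30 UMIs, of which 1 was 2-fold or more higher in *Postn*-DTR and 1 lower. They were *Pim2*, a survival kinase, with a log2 ratio of 1.01, and *Sdc1*, a proteoglycan that binds APRIL, with -1.27 from 33 and 3 UMIs. Of all genes in B2-like cells 6.55% were 2-fold or more apart. In B1-like cells 0 of 38 were higher and 1 was lower, the costimulatory receptor gene *Cd40* (-1.05), in a class where 6.09% of all genes were. The list medians were -0.02 and 0.01, beside 0.01 and 0.01 over all genes tested.

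In plasma-like cells 2 of 42 pathway genes were 2-fold or more higher and 11 lower. Of all 11731 genes tested in the class 586 were higher and 1066 lower, 14.1% in either direction. The list median was -0.30 beside -0.01 over all genes. Adaptor and NF-kB genes past 2-fold were all lower, 5 of 20, beside the same 14.1% in either direction, among which lower genes also outnumbered higher ones. They were *Nfkb2*, which encodes the p100 precursor of the alternative pathway, with levels of 0.394 and 0.172 (log2 ratio -1.20), *Rel* (-1.18), the inhibitor gene *Nfkbie* (-1.01), *Traf1* (-1.16) and *Traf5* (-1.70). *Relb*, the partner of p52, was 0.242 and 0.135 (-0.84), *Traf3* 0.116 and 0.0995 (-0.22) and *Map3k14*, which encodes the kinase NIK, 0.0420 and 0.0302 (-0.48).

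Of 9 survival genes tested in plasma-like cells, 2 were higher and 3 lower by 2-fold or more, again beside 14.1% of all genes. *Bcl2l1*, which encodes anti-apoptotic BCL-XL, was 0.0454 in WT and 0.127 in *Postn*-DTR (1.48), and *Bcl2l11*, which encodes pro-apoptotic BIM, was 0.356 and 0.852 (1.26). *Pim2* was 0.705 and 0.348 (-1.02). *Bcl2a1b* (-1.87) and *Bcl2a1d* (-2.82) were also lower, but these genes are near-identical copies whose reads can be split between them. *Mcl1* was 3.72 and 4.72, a log2 ratio of 0.34, and *Bcl2* 0.407 and 0.333 (-0.29). The 3 related receptor and ligand genes tested were past 2-fold and lower: *Cd40* (-2.56), *Cd27* (-3.25) and *Cd40lg* (-2.63, from 22 and 8 UMIs), the last of which is a T cell gene. *Cd40* (0.0812 and 0.0137) and *Cd27* (0.0489 and 0.00514) were at low levels. In the same cells T cell markers summed to 0.826 in WT and 0.207 in *Postn*-DTR. Of the B2 markers *Cd79a* was higher (0.28) and the others lower, from -0.37 (*Cd79b*) to -4.21 (*Fcer2a*). The part of such markers in the pathway values of plasma-like cells was not tested. The 7 receptor shedding genes, protease and gamma-secretase subunits that release TACI and BCMA from the surface, had 0 past 2-fold and a median of -0.00.

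In B2-like and B1-like cells *Nfkb2*, *Relb*, *Traf3*, *Map3k14*, *Mcl1* and *Bcl2* did not reach 2-fold. *Nfkb2* was 1.20 and 0.887 in B2-like cells (-0.44) and 0.649 and 0.433 in B1-like cells (-0.58). *Relb* was 0.467 and 0.808 in B2-like cells (0.79) and 0.357 and 0.459 in B1-like cells (0.36). *Traf3* had log2 ratios of -0.47 and -0.78, *Map3k14* 0.29 and 0.25, *Mcl1* 0.38 and 0.34 and *Bcl2* -0.33 and -0.62 in B2-like and B1-like cells.

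Over 24 points (14 classes in WT and 10 in *Postn*-DTR with at least 30 cells), the genes with the pattern most like each member were found by Pearson correlation of log2 mean levels, as a description. All points of 1 library share its depth and free RNA, and *Mmp9*, *Csf1r*, *Irf4* and *Cd79a* in what follows were among the markers that named classes. For BAFF these were *Dstn* (r = 0.91), *Mmp9* (0.91) and *Clec5a* (0.90), and for APRIL *Emilin2* (0.97), *Fn1* (0.97) and *Csf1r* (0.96). TACI was closest to *Irf4* (0.91), *Blnk* (0.89) and C130026I21Rik (0.87). BAFF-R was closest to *Fcmr* (0.97), *Cd79a* (0.96) and 2010309G21Rik (0.95), and BCMA to *Fut1* (0.96), *Pls1* (0.96) and *Prg2* (0.93). Outside plasma-like cells BCMA was at most 0.0912 at these points, so its correlations rest mainly on the plasma-like point of each library.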

How the data were processed

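The series holds 2 droplet libraries (10x Genomics), 1 from WT and 1 from *Postn*-DTR omenta, each pooled from 3 mice. Per the processing notes the submitters used Cell Ranger 6.0.0 and mm10, while the methods name an earlier release, and the labels and the methods give different capture ends for the kit. The deposited values are the natural log of 1 plus UMIs per 10000 UMIs of the cell. Since the authors had scaled whole UMIs, these were recovered from the steps of the values: 99.9663% of WT and 99.9099% of *Postn*-DTR values lay within 0.1 of a whole UMI, and 100% of those up to 20 UMIs did. The libraries held 80152242 and 81011111 UMIs in the cells kept. No column was left unused.

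Cells with 200 to 7500 genes and at most 25% mitochondrial UMIs were kept (8654 of 8686 and 5727 of 5736). They were clustered together with Seurat 5.3.0 and sctransform 0.4.2 in R 4.3.3 (3000 variable genes, 30 principal components, resolution 0.8). A cluster was named when at least 3 markers and a score of 0.5 (share of the list at least 2-fold above the other cells) were reached. The automatic doublet threshold of Scrublet (scanpy 1.11.5) marked only 2 WT cells, so a score of 0.25, set after the scores were seen, was used. It marked 1.57% and 1.85% of cells, which were kept and left out only as an alternative.

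Levels are means over cells on the linear scale, and log2 ratios are *Postn*-DTR over WT, given for genes with at least 30 UMIs in the class over both libraries. Exact Poisson, Clopper-Pearson and conditional binomial intervals cover counting error only. With 1 library per group no test and no count model such as a quasi-likelihood fit was run. The ratio and its interval were checked on simulated Poisson counts, drawn from a single profile per library. These held no variation between cells or mice beyond counting, so only the calculation was checked. Named genes were the 5 members, listed pathway genes past 2-fold with 6 others (*Relb*, *Traf3*, *Map3k14*, *Mcl1*, *Bcl2* and *Nfkb2*) and the 3 genes most like each member in pattern (at least 500 UMIs, log2 of the mean level plus 0.05). The members, lists and classes were chosen with earlier results of these data known. Gene symbols missing from the deposited list (1060) were filled from GENCODE vM21, in which 19932 of 19960 identifiers were found, and start site sequences came from RefSeq. One result is not reported here.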

Additional observations from a re-analysis of the deposited data

How the results depend on the processing

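No paired analysis was possible because each group has 1 library, and for the same reason no library could be left out. Differences between the libraries cannot be told apart from differences between pools of mice or captures. Of 128 recomputed log2 ratios 107 differed from the reported ratio by at most the longer arm of the counting interval of the summed ratio. Sign changes were counted only where the reported ratio was past 2-fold, which holds for BCMA in plasma-like cells alone. Its sign did not change. Below 2-fold the sign did change in some alternatives for TACI in plasma-like cells, BAFF in neutrophil-like cells and APRIL in macrophage-like and stromal-like cells. With classes gated on marker UMIs the ratios were -0.55 for TACI in B1 cells, -0.0939 for BAFF-R in B1 cells, -0.0725, 1.04 and -1.25 for TACI, BAFF-R and BCMA in plasma cells, and -0.48, 0.0658 and 0.34 for APRIL in neutrophils, macrophages and cDC2. With cells thinned to 2000 UMIs they were -0.42 for BAFF-R in B1-like cells, 0.65 and -1.61 for BAFF-R and BCMA in plasma-like cells, and -0.96 for APRIL in neutrophil-like cells. Without immunoglobulin, receptor, mitochondrial and ribosomal protein genes in the totals, plasma-like cells gave -0.0761 for TACI and -1.31 for BCMA. BCMA was -1.02 when the plasma-like clusters were weighted equally, an alternative added after the data were seen. In neutrophil-like cells summed UMIs gave -0.52 for BAFF and -0.0899 for APRIL, and APRIL was -0.52 when centred on the class median. At resolution 1.6 the ratio was -0.11 for BAFF-R in B1-like cells and -1.33 for APRIL in neutrophil-like cells, which then lacked the *Elane* and *Mpo* cluster. Leaving that cluster out, also added after the data were seen, gave -1.42.

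The neutrophil-like share of BAFF UMIs in WT was 34.0% at resolution 1.6, 42.8% with gates and 47.6% as mean level times number of cells, and in *Postn*-DTR 40.1%, 47.3% and 85.2%. The macrophage-like share of APRIL as mean level times cells was 30.9% in WT and 55.3% in *Postn*-DTR, where gates gave 19.6%. APRIL in cDC2-like cells passed 2-fold when centred (1.06) and when thinned (1.12), and in stromal-like cells the ratio was 0.05 when centred and -1.25 when thinned. With a minimum of 100 or 10 UMIs per gene, 2.84% and 11.3% of genes in B2-like cells and 3.27% and 10.3% in B1-like cells were 2-fold or more apart. With 100 UMIs the value was 9.85% in macrophage-like and 11.6% in cDC2-like cells. The cause of these shifts was not tested.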
